A study of Homo sapiens with 6 samples.

Results

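The mRNAs of the cytosolic ribosomal proteins were examined in HepG2-hCAR, a single-cell clone of HepG2, a line from a human liver carcinoma. By lentivirus the clone received a cDNA of human CAR, the constitutive androstane receptor (gene NR1I3), which doxycycline switches on. CAR is a nuclear receptor that activates genes of drug metabolism. Polyadenylated RNA was sequenced from 3 libraries of cells given vehicle and 3 libraries of cells given doxycycline at 1 µg/ml, a tetracycline antibiotic, all at 72 h. All 6 libraries come from this 1 clone, every one carries the inducible construct, and none had doxycycline without it, so the antibiotic and the receptor cannot be told apart. The genes were those whose symbol begins with RPL or RPS followed by a number, P or A, which leaves the P stalk proteins (RPLP0 to RPLP2) and RPSA in. The S6 kinases (RPS6K), RPS19BP1 and 3 fusion entries that join a ribosomal protein gene to its neighbour were left out, 11 entries in all. This gave 83 of 11456 listed genes, 50 of the large and 33 of the small subunit, and all 83 passed the minimum mean of 1 FPKM. FPKM counts fragments per length of transcript and per number mapped, so every value is relative to the rest of its library.

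A ribosome is built of a small subunit, which holds the mRNA and reads its codons, and a large subunit, which joins amino acids and passes the growing chain through an exit tunnel. Nearly every ribosomal protein is present in a single copy, and free subunit proteins are unstable, so cells make them in matched amounts. In vertebrates the mRNAs of ribosomal proteins typically begin with a cytosine and an unbroken run of pyrimidines, the terminal oligopyrimidine (TOP) tract, through which the kinase mTOR and the RNA-binding protein LARP1 control their translation. These mRNAs are abundant in growing cells, and several, such as RPLP0, RPL13A and RPS18, serve as reference genes in quantitative PCR.

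The sequences at the transcription start show this shared tract. RefSeq start sites (GRCh38.p14) were matched by symbol for 68 of the 83 genes, and each window reached from 250 bases before the start to 50 after it. A C at the start followed by at least 4 bases that are each C or T, on the strand of the transcript, was found at a start of 48 of these 68 genes (70.6%). Over all listed genes with a RefSeq window the share was 7.58% (678 of 8942). The E-box CACGTG, a palindrome that reads the same on both strands, was present in the window of 5 members (7.35%) and of 13.0% of all listed genes. Below, 10 bases before and 20 bases from the start are given 5′ to 3′, with the tract in capitals. The first are members on which the results turn, RPS12 being the most abundant and RPL3 the one with the largest change.
RPS12, chr6:132814559-132814588, plus strand: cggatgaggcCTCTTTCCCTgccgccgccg
RPL13, chr16:89560672-89560701, plus strand: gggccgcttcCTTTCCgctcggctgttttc
RPSA, chr3:39406710-39406739, plus strand: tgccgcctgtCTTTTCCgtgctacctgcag
RPLP0, chr12:120201092-120201121, minus strand: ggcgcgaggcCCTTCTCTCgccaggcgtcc
RPL3, chr22:39319604-39319633, minus strand: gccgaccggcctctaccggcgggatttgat
The start of RPL3 is without the tract as defined. The next are members beside the paralog that bears a derived name.
RPL22, chr1:6199576-6199605, minus strand: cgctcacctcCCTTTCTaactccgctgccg
RPL22L1, chr3:170870176-170870205, minus strand: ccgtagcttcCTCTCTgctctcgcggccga
RPL26, chr17:8383174-8383203, minus strand: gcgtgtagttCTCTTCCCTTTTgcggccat
RPL26L1, chr5:172958719-172958748, plus strand: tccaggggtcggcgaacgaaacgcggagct
RPL36A, chrX:101391001-101391030, plus strand: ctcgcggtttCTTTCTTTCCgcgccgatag
RPL36AL, chr14:49620607-49620636, minus strand: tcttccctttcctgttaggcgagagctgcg
RPS27, chr1:153990752-153990781, plus strand: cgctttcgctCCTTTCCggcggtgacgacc
RPS27L, chr15:63157458-63157487, minus strand: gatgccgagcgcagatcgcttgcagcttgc
Of these paralogs RPL22L1 has the tract, while RPL26L1, RPL36AL and RPS27L do not, and all 4 partners have it. The 48 members with a tract had a median log2 fold change of -0.12 with doxycycline (minus vehicle), and 20 of them were called lower. The 20 members without it had a median of -0.068, and 4 were called lower. Of the 6 members named as paralogs, whose median was -0.0015, 2 have the tract, so tract and paralog name are mixed in this contrast. Among all genes tested 13.6% were called lower (limma, Benjamini-Hochberg adjusted p below 0.05). The difference between members with and without the tract was not tested. A match of letters at an annotated start is a description of the reference, not of the transcripts in these cells.

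As to the libraries as a whole, the FPKM values of each summed to 204318 to 209372, with vehicle replicate 1 highest, and 11441 to 11453 of 11461 entries were above 0. No counts were used, so the depth is unknown. NR1I3 was at 3.15, 3.01 and 3.56 FPKM with vehicle and 331, 317 and 316 FPKM with doxycycline, higher in the libraries labelled doxycycline, although FPKM does not separate the cDNA from the endogenous gene. The hepatocyte markers ALB, TTR, APOA1, APOB, SERPINA1, FGB, TF and HNF4A were all listed, APOA1 at 294 and ALB at 1.87 FPKM with vehicle. All 8 had a negative log2 fold change, and 6 were called lower (13.6% of all genes were). SERPINA1 (mean lower by 34.6%) and HNF4A (by 33.5%) were not called. The summed FPKM of the 8 markers ran from 1419.6 to 1562 with vehicle and from 708 to 733 with doxycycline. Of 10 markers of blood, endothelial and stromal cells 4 were tested, with LYZ, CD68 and ACTA2 lower and PDGFRB higher. The others were not among the listed genes. The sum of these 4 ran from 563 to 606 FPKM with vehicle and from 279.6 to 292 FPKM with doxycycline, most of it LYZ, at 549.5 ± 24.0 and 261 ± 7.33 FPKM. Their part in the results was not tested. Whether separate cultures gave the 3 libraries of each group is not in the labels, so the p-values measure the spread between these libraries, which may be technical.

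In both groups the members were abundant. Averaged over the 6 libraries their levels ran from 8.61 FPKM (RPL22L1) to 802 FPKM (RPS12), with a median of 101.7, against a median of 6.15 FPKM over all 11456 genes. The subunit medians were 104 FPKM for the large and 100.5 FPKM for the small subunit. Of the large subunit the most abundant mRNAs were RPL11, RPL41 and RPL13A, and of the small subunit RPS12, RPS27 and RPS18. Across the 83 members, level and log2 fold change had a Spearman's rho of -0.028, a description over genes that share the same libraries.

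With doxycycline the ribosomal protein mRNAs were slightly lower as a group, and nearly all leaned the same way. Of 83 members 28 fell (33.7%) and none rose, against 13.6% called lower, 15.2% called higher and 28.8% called either way among all 10469 genes tested (limma, adjusted p below 0.05). The log2 fold change was negative for 79 members (95.2%) and for 48.2% of all genes. Its median was -0.12 over the members and 0.0090 over all genes, and the members' quartiles were -0.15 and -0.077. In 50 members (60.2%) every doxycycline library was below every vehicle library, which held for 22.3% of all genes, and the reverse order was seen in 1 member, RPS27L, and in 24.8% of all genes. The size of the shift is small, and a change of scale bears on it. When each library was rescaled to the same FPKM total, 41 members were called lower (13.7% of all genes). With quantile normalization 21 were called lower (14.3% of all genes) and 3 higher, namely RPL11, RPL21 and RPL41, and 18 members had a positive log2 fold change. Leaving out 1 library changed the count of calls: 19 without vehicle replicate 1 (10.6% of all genes), 22 without vehicle replicate 2 (10.4% of all genes), 28 without vehicle replicate 3 (10.2% of all genes), 19 without doxycycline replicate 1 (10.3% of all genes), 19 without doxycycline replicate 2 (10.4% of all genes), 14 without doxycycline replicate 3 (10.7% of all genes). In these bulk samples fewer cells with these mRNAs and less of these mRNAs per cell cannot be told apart. Each value is also relative to the rest of its library.

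**Figure D1:**
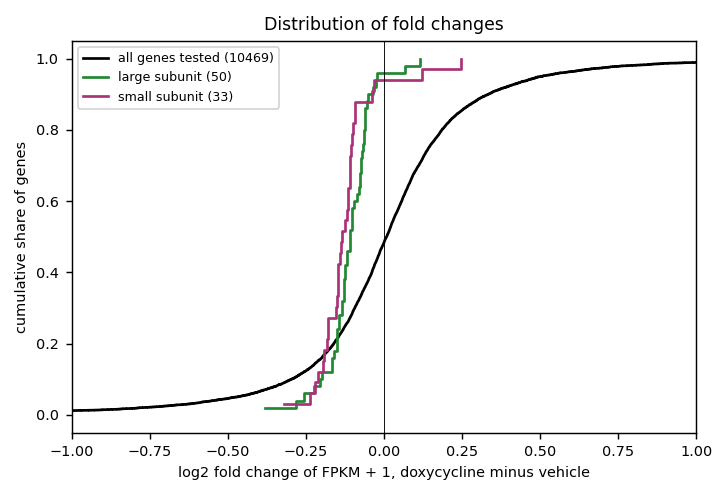
Cumulative distribution of log2 fold changes of FPKM + 1 (x axis, doxycycline minus vehicle, drawn from -1 to 1) for all genes tested (black), the 50 large subunit members (green) and the 33 small subunit members (purple). Both member curves rise steeply left of 0, with medians of -0.11 and -0.13, while the curve of all genes has its median at 0.0090. With quantile normalization the member medians were -0.066 and -0.10.

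Summed over its members, each subunit was lower with doxycycline. Summed FPKM of the large subunit members was 6860.3, 6531 and 6517 in vehicle replicates 1 to 3 and 6184, 6132 and 6013 in doxycycline replicates 1 to 3. For the small subunit the sums were 5379.8, 5219.8 and 5099 with vehicle and 4856, 4818 and 4701 with doxycycline. In both subunits every doxycycline sum lay below every vehicle sum. The large subunit mean dropped by 7.93% and the small subunit mean dropped by 8.43%, with no test of these sums. The ratio of large to small was 1.27 ± 0.0148 with vehicle and 1.28 ± 0.00339 with doxycycline (throughout, ± gives the SD over n = 3 libraries), and its values overlapped. All members together made up 5.75% ± 0.0910 of the listed FPKM with vehicle and 5.25% ± 0.0516 with doxycycline, and these shares did not overlap. Of the large subunit 17 of 50 members fell, and of the small subunit 11 of 33, shares of 34.0% and 33.3% against the 13.6% of all genes. The subunits' medians, -0.11 and -0.13, were not tested against each other.

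**Figure D2:**
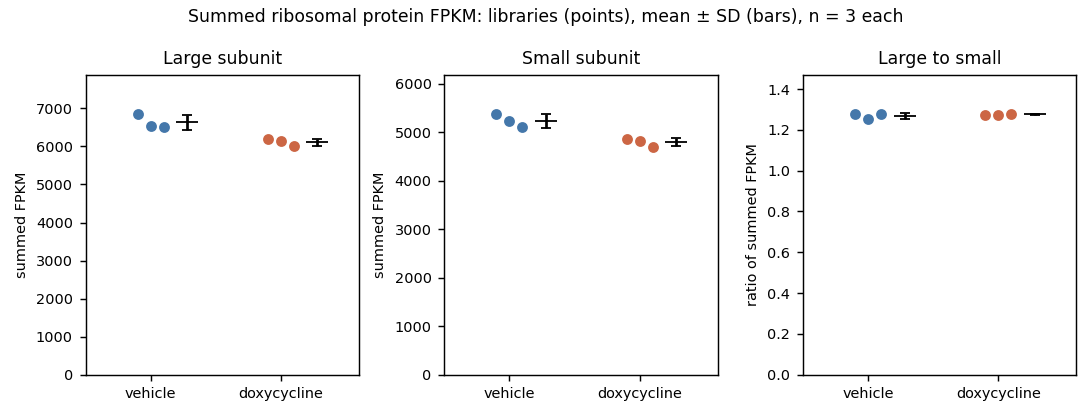
Summed FPKM of the large and the small subunit members and their ratio (y axes from 0) in each library (points), with mean ± SD of 3 libraries per group (bars). The doxycycline sums lie below all vehicle sums in both subunits, while the ratio stays between 1.25 and 1.28 in all 6 libraries. With quantile normalization the ratio of doxycycline to vehicle over all members was 0.974 in place of 0.919.

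The libraries of a group differed among themselves by amounts that are not small beside this shift. Vehicle replicate 1 was the highest of the 6 libraries for 64 of 83 members, and doxycycline replicate 3 was the lowest for 43. As a median over the members, deviations from the vehicle mean were 0.051, -0.021 and -0.029 on the log2 scale in the vehicle libraries and -0.10, -0.11 and -0.14 in the doxycycline libraries. Over all genes tested the same medians stayed between -0.0047 and 0.0129. Without vehicle replicate 1 the median of the members was -0.090 and 19 were called lower. The part of these libraries in the result was not tested beyond leaving each out.

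**Figure D3:**
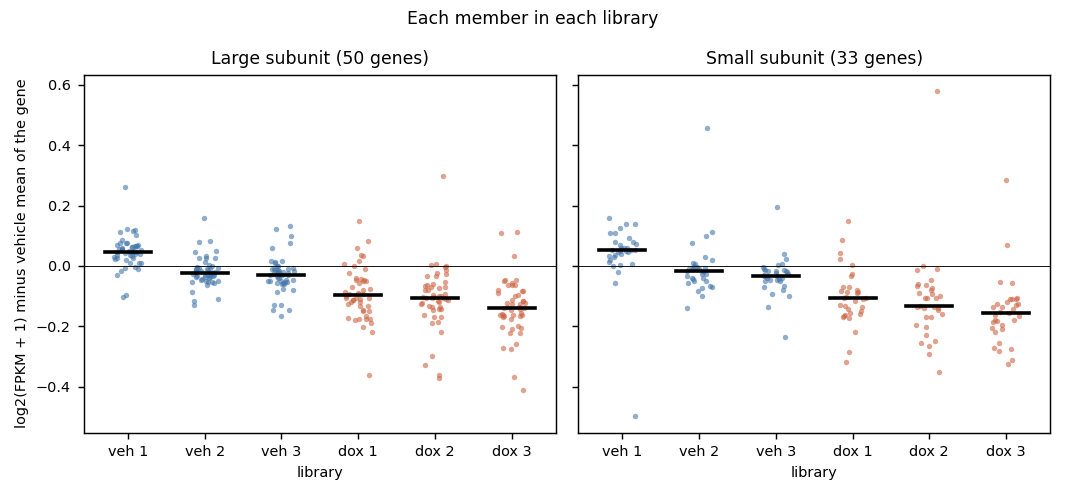
Each point is 1 member in 1 library: log2(FPKM + 1) minus the vehicle mean of that gene (y axis), for the large subunit (left) and the small subunit (right), vehicle in blue and doxycycline in orange, with black bars at the median. Vehicle replicate 1 sits highest with a median of 0.051 over all members, and the doxycycline libraries lie at -0.10 to -0.14. The points far from the rest in the right panel include RPS3A and RPS27L.

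RPL3, a protein near the peptidyl transferase centre of the large subunit (chromosome 22, 39708887 to 39716394, minus strand, GRCh37, as for all gene positions below), had the largest change of all members. Its values were 193, 219 and 209 FPKM with vehicle and 161, 159.6 and 155 FPKM with doxycycline, so the groups were well apart. RPL3 fell by 23.5% (log2 fold change -0.38, SE 0.05, adjusted p = 0.00224), and it was called in all 17 alternatives. RPL13 (chromosome 16, 89627065 to 89633236) was at 88.6, 86.1 and 85.4 FPKM with vehicle and 76.0, 76.1 and 74.2 FPKM with doxycycline and fell by 13.0% (adjusted p = 0.00282), also in all 17. RPL28 was at 33.01, 30.8 and 31.5 FPKM with vehicle and 28.1, 25.6 and 27.5 FPKM with doxycycline and fell by 14.8%, and RPL36 was at 91.4, 87.8 and 85.1 FPKM with vehicle and 77.9, 78.7 and 72.6 FPKM with doxycycline and fell by 13.3%. The groups did not overlap in either of these large subunit proteins, with doxycycline lower, an order that 22.3% of all genes had. Both stayed called in all alternatives, RPL36 with an adjusted p of up to 0.0497. HSD11B1L overlaps RPL36 on the same strand.

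Among called members of the small subunit, RPS3 and RPS26 had some of the largest changes. RPS3, at the entry of the mRNA channel, was at 37.1, 40.9 and 35.3 FPKM with vehicle and 32.2, 32.02 and 31.4 FPKM with doxycycline and fell by 15.6% (adjusted p = 0.0237). The RPS3 call was lost without vehicle replicate 1 (0.0563) and without doxycycline replicate 1 (0.0599), 2 (0.0640) and, in turn, 3 (0.0720), where all alternatives gave adjusted p from 0.0171 to 0.0720. RPS26, which lines the mRNA exit and is mutated in Diamond-Blackfan anaemia, was at 93.5, 93.9 and 90.5 FPKM with vehicle and 82.1, 77.4 and 82.7 FPKM with doxycycline. RPS26 fell by 12.8% (adjusted p = 0.00811) and was called in all 17 alternatives. RPS25, a protein that some viral internal ribosome entry sites need, fell from 217 ± 11.2 to 189 ± 2.96 FPKM, and its call was lost without doxycycline replicate 2 (0.0560) and, in turn, 3 (0.0565), where all alternatives gave adjusted p from 0.00681 to 0.0565. RPS7, which can bind the p53 regulator MDM2, fell from 133 ± 4.60 to 119 ± 2.05 FPKM, and its call was lost without vehicle replicate 2 (0.0518) and without doxycycline replicate 3 (0.0571), where all alternatives gave adjusted p from 0.00724 to 0.0571.

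**Figure D4:**
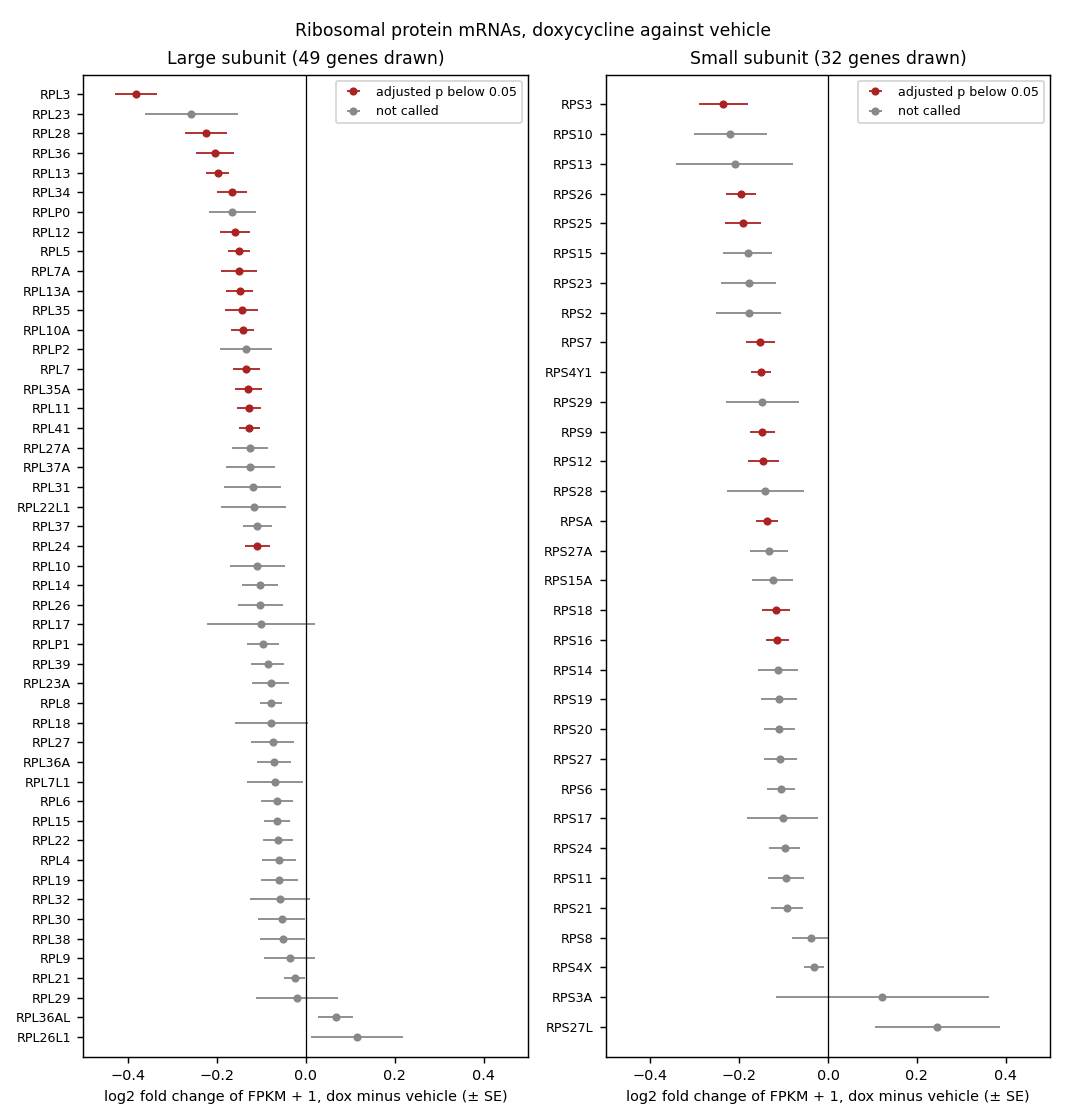
Log2 fold change of FPKM + 1, doxycycline minus vehicle, with its standard error (x axis) for large subunit members (left) and small subunit members (right), ordered by size, with 1 called member of each subunit not drawn. Red marks members called lower, grey those not called, and RPL3 stands lowest at -0.38. With quantile normalization the red members RPL11, RPL13A, RPL41, RPS12 and RPS18 had positive values.

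Of the 6 members that were the 3 most abundant of each subunit, 5 fell (13.6% of all genes were called lower). Quantile normalization, with which 14.3% of all genes were called lower, turned the sign of all 6. RPS12 (chromosome 6, 133135580 to 133138703) was at 870.4, 839 and 819 FPKM with vehicle and 767, 784 and 735 FPKM with doxycycline, without overlap. It fell by 9.61% (adjusted p = 0.0245), but had 0.012 after quantile normalization (adjusted p = 0.477), and the call was also lost without vehicle replicate 1 (0.0578) and, in turn, 2 (0.0665), without doxycycline replicate 1 (0.0622) and, in turn, 3 (0.0629) and without the variance trend (0.0567), where all alternatives gave adjusted p from 0.00651 to 0.477. RPL11, which with RPL5 carries the 5S ribosomal RNA and can inhibit MDM2, was at 486, 470.4 and 470.2 FPKM with vehicle and 438, 443 and 424 FPKM with doxycycline. RPL11 fell by 8.53% (log2 fold change -0.13, SE 0.03, adjusted p = 0.0153), but after quantile normalization it was called higher, at 0.18 (adjusted p = 1.70e-04), and the call was lost without the variance trend (0.0529), where all alternatives gave adjusted p from 1.70e-04 to 0.0529. RPL41, the shortest ribosomal protein, was at 440.5, 423 and 426 FPKM with vehicle and 397, 391 and 391 FPKM with doxycycline and fell by 8.47% (adjusted p = 0.0104), but was called higher after quantile normalization (0.14, adjusted p = 1.21e-04). For all 3 genes the 2 groups did not overlap on the deposited scale, an order that 22.3% of all genes had. RPL13A fell from 325 ± 11.1 to 293 ± 4.87 FPKM, but had 0.025 after quantile normalization (adjusted p = 0.231), and its call was lost without doxycycline replicate 3 (0.0525), where all alternatives gave adjusted p from 0.00387 to 0.231. RPS18 fell from 288 ± 8.201 to 266 ± 6.42 FPKM, but had 0.0063 after quantile normalization (adjusted p = 0.805), and its call was lost without vehicle replicate 1 (0.0874) and, in turn, 2 (0.0981), without doxycycline replicate 1 (0.0777), 2 (0.0585) and, in turn, 3 (0.0961) and without the variance trend (0.0844), where all alternatives gave adjusted p from 0.0134 to 0.805. RPS27 was at 299, 284 and 282 FPKM with vehicle and 272, 274 and 257 FPKM with doxycycline, again without overlap, and was not called (adjusted p = 0.0798). It was called lower when libraries were rescaled to 1 total (0.0289), and had 0.014 after quantile normalization.

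By place in the ribosome, members of each group leaned lower, and the shares called differed without a test. Of 33 proteins that bacteria share, 14 fell, with a median log2 fold change of -0.14, and of the 44 others that bear no derived name, 13 fell, with a median of -0.11. These are shares of 42.4% and 29.5%, against 13.6% called lower among all genes tested. Both RPL5 and RPL11 of the 5S particle fell. RPL5 was at 237, 234 and 236 FPKM with vehicle and 208, 217 and 210.1 FPKM with doxycycline, without overlap, and fell by 9.96% (adjusted p = 0.00598) in the deposited scale and in all 17 alternatives. Of the 4 proteins of the stalk that recruits elongation factors and of its base, only RPL12 was called (13.6% of all genes were called lower). RPL12, at the stalk base, was at 235, 218 and 220.5 FPKM with vehicle and 203, 199.8 and 199.9 FPKM with doxycycline and fell by 10.6% (adjusted p = 0.0164), a call lost without doxycycline replicate 2 (0.0540) and, in turn, 3 (0.0532) and with quantile normalization (0.1001), where all alternatives gave adjusted p from 0.00570 to 0.1001. RPLP0, which anchors the stalk, was at 120.5, 113 and 111 FPKM with vehicle and 99.6, 109 and 98.2 FPKM with doxycycline, without overlap, and did not pass (adjusted p = 0.0623). RPLP0 was called without doxycycline replicate 2 (0.0267) and with libraries rescaled to 1 total (0.0345). RPLP1 and RPLP2 had log2 fold changes of -0.096 and -0.14 and were not called (both chosen after their values were seen), and in these 4 proteins no doxycycline library reached a vehicle one, an order that 22.3% of all genes had.

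At the rim of the exit tunnel, through which the new chain leaves, 1 of 8 proteins fell (12.5%, close to the 13.6% of all genes), with a median of -0.093. This was RPL35, at 203, 192 and 188 FPKM with vehicle and 180.3, 170.3 and 176 FPKM with doxycycline, which fell by 9.60% (adjusted p = 0.0335), a call lost without vehicle replicate 1 (0.0665) and, in turn, 2 (0.0743), without doxycycline replicate 2 (0.0938) and, in turn, 3 (0.0813), without the variance trend (0.0650) and with quantile normalization (0.0850), where all alternatives gave adjusted p from 0.0199 to 0.0938. RPL31 was at 59.3, 60.0 and 51.0 FPKM with vehicle and 51.9, 52.0 and 52.3 FPKM with doxycycline, where vehicle replicate 3 lay below the doxycycline libraries, and it was called lower without that library (adjusted p = 0.00972) but not with it (0.216). Around the mRNA channel of the small subunit 3 of 6 proteins fell (against 13.6% of all genes), namely RPS3, RPS26 and RPSA, with a median of -0.16. RPSA, also known as the laminin receptor, was at 140.3, 135 and 136 FPKM with vehicle and 124, 125 and 125 FPKM with doxycycline and fell by 9.20% (adjusted p = 0.00830), in all 17 alternatives too, and was chosen after its values were seen. RPL23 was in neither of these structural lists, but among the large subunit proteins that bacteria share. RPL23 was at 52.8, 50.3 and 43.2 FPKM with vehicle and 46.0, 38.5 and 37.4 FPKM with doxycycline, with overlap and a wide spread in both groups, and its log2 fold change of -0.26 was not called (adjusted p = 0.119).

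The line between called and not called ran through members of like size. RPL7A was the called member nearest to the limit, at 289, 269 and 264 FPKM with vehicle and 242, 255 and 244 FPKM with doxycycline (adjusted p = 0.0394), and its call was lost without vehicle replicate 1 (0.0595) and, in turn, 2 (0.0743), without doxycycline replicate 1 (0.111), 2 (0.0523) and, in turn, 3 (0.108) and without the variance trend (0.0702), where all alternatives gave adjusted p from 0.0155 to 0.111. RPL37 was the nearest not called, at 39.8, 37.7 and 37.5 FPKM with vehicle and 35.5, 35.6 and 35.3 FPKM with doxycycline (adjusted p = 0.0504). Its groups did not overlap, with doxycycline lower, an order that 22.3% of all genes had. RPL37 was called with a minimum of 5 FPKM (0.0418), with libraries rescaled to 1 total (0.0300), with median-ratio scaling (0.0472) and with robust moderation (0.0475). The median standard error was 0.032 for called members and 0.048 for the others.

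Members named as paralogs of another ribosomal protein had log2 fold changes of both signs. Of the 6 listed, 3 had a positive and 3 a negative log2 fold change (negative in 48.2% of all genes), and their median was -0.0015. Only RPS4Y1 was called, a share of 16.7%, close to the 13.6% of all genes called lower. RPS27L, a p53-induced copy of RPS27, was at 9.54, 8.96 and 9.08 FPKM with vehicle and 9.83, 14.2 and 9.70 FPKM with doxycycline. All its doxycycline values lay above its vehicle values, but 1 library stood far above the others and the difference was not called (log2 fold change 0.25, SE 0.14, adjusted p = 0.245). RPL36AL, an intronless copy of RPL36A, was at 147, 138 and 145 FPKM with vehicle and 152, 144 and 155 FPKM with doxycycline, and RPL36A at 47.4, 44.0 and 44.1 FPKM with vehicle and 43.6, 43.0 and 42.1 FPKM with doxycycline. RPL36AL overlapped between groups and was the more abundant of the pair, at 311% to 329.7% of RPL36A with vehicle and 336% to 368% with doxycycline. Neither was called, and RPL36A shares its locus with a fusion entry. RPL26L1 was at 23.8, 27.2 and 22.1 FPKM with vehicle and 24.6, 30.1 and 24.9 FPKM with doxycycline, overlapping, and RPL26 at 114, 112 and 104 FPKM with vehicle and 97.9, 108 and 102 FPKM with doxycycline, overlapping too. RPL26L1 was at 20.9% to 24.3% of RPL26 with vehicle and 24.5% to 27.8% with doxycycline, and neither gene was called (adjusted p = 0.457 and 0.182). These ratios did not overlap, nor did those of RPL36AL to RPL36A and of RPS27L to RPS27. The ratios of RPL7L1 to RPL7 and of RPL22L1 to RPL22 overlapped, and no ratio was tested.

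RPL22L1, which can take the place of RPL22, was at 9.18, 9.16 and 8.64 FPKM with vehicle and 8.37, 8.98 and 7.35 FPKM with doxycycline, and RPL22 at 165, 153 and 159 FPKM with vehicle and 154, 149 and 154 FPKM with doxycycline, both overlapping and not called. RPL7L1, a nucleolar relative of RPL7, was at 17.3, 18.2 and 20.5 FPKM with vehicle and 17.7, 17.6 and 17.8 FPKM with doxycycline, overlapping. RPL7 fell from 179.8 ± 5.40 to 164 ± 2.97 FPKM (adjusted p = 0.0210), a call lost without vehicle replicate 1 (0.0527) and, in turn, 3 (0.0679), without doxycycline replicate 2 (0.0553) and, in turn, 3 (0.0657) and without the variance trend (0.0547), where all alternatives gave adjusted p from 0.00772 to 0.0679. RPS4Y1, the Y-linked copy of RPS4X, fell (log2 fold change -0.15, adjusted p = 0.00492), while RPS4X was at 187, 185 and 187 FPKM with vehicle and 183, 185 and 179 FPKM with doxycycline and was not called (log2 fold change -0.031, or 0.054 after quantile normalization). The difference between partners was not tested, and near-identical copies and processed pseudogenes can exchange reads in any of these pairs.

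**Figure D5:**
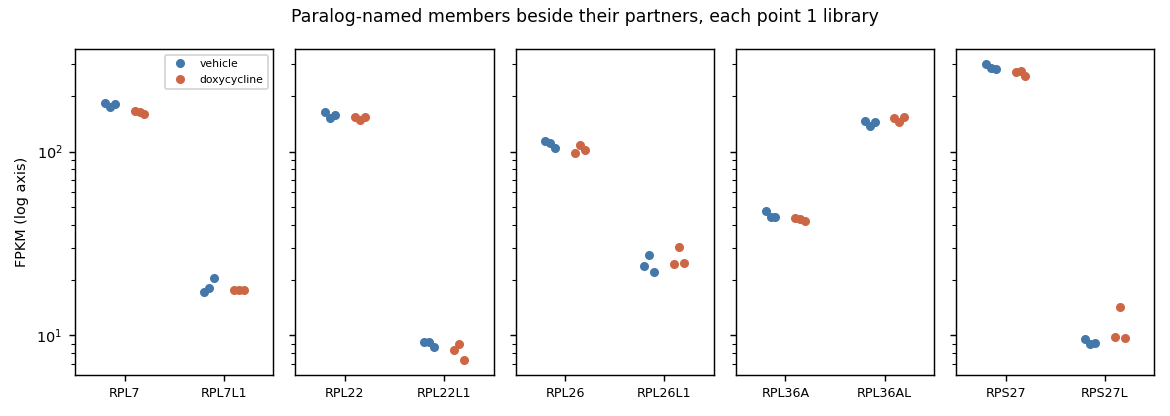
FPKM on a log axis of 5 paralog-named members beside their partners, each point 1 library, vehicle in blue and doxycycline in orange. RPL36AL lies above RPL36A in all 6 libraries, the other 4 paralogs lie below their partners, and 1 doxycycline library of RPS27L stands apart at 14.2 FPKM.

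A few members varied widely within a group. RPS3A was at 114, 222 and 166 FPKM with vehicle and 179, 154 and 197 FPKM with doxycycline, so vehicle replicates 1 and 2 differed by more than any group means (adjusted p = 0.743). RPL17 was at 192, 146 and 146 FPKM with vehicle and 165, 145 and 139.6 FPKM with doxycycline, and the fusion entry that spans it ranged from 5.87 to 20.2 FPKM over the libraries. RPS13, which PIK3C2A overlaps on the same strand, was at 117, 110.3 and 88.7 FPKM with vehicle and 83.6, 105 and 84.2 FPKM with doxycycline. These 3 were picked once their values were known, and in all of them the groups overlapped and the test did not pass. At the other end RPL21 was at 207, 204 and 201 FPKM with vehicle and 201, 204 and 198 FPKM with doxycycline, with little spread and a log2 fold change of -0.025 (0.077 and called higher after quantile normalization), also chosen after its values were seen. In all, the coordinates of 7 members overlap those of a same-strand neighbour in the table.

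Genes that work beside the ribosomal proteins were compared in the same way. FAU encodes a ribosomal protein fused to a ubiquitin-like protein and falls outside the naming rule. FAU was at 62.0, 55.4 and 56.0 FPKM with vehicle and 54.4, 52.6 and 50.7 FPKM with doxycycline. Its groups did not overlap, an order that 22.3% of all genes had, and it was not called (adjusted p = 0.110). Of 20 translation factors and other mRNAs known for a TOP tract, FAU included, 3 fell (a share close to the 13.6% of all genes) and none rose (15.2% of all genes), with a median log2 fold change of -0.066 and 12 of 13 matched genes bearing the tract. The log2 fold change was negative for 17 of the 20 (85.0%), against 48.2% of all genes. In 9 of them (45.0%) every doxycycline library was below every vehicle library, against 22.3% of all genes. The reverse order was seen in none of the 20, against 24.8% of all genes. HNRNPA1, a splicing factor, fell from 179 ± 3.53 to 156 ± 1.80 FPKM (adjusted p = 0.00210), and EEF1B2, an exchange factor of elongation factor 1, from 184 ± 1.87 to 165 ± 1.505 FPKM (adjusted p = 0.00276). EIF3E, an initiation factor subunit, fell from 57.1 ± 2.14 to 51.6 ± 1.26 FPKM, and its call was lost without vehicle replicate 1 (0.0668) and, in turn, 2 (0.0665), without doxycycline replicate 1 (0.0623), 2 (0.0909) and, in turn, 3 (0.0707) and without the variance trend (0.0582), where all alternatives gave adjusted p from 0.0233 to 0.0909. EEF1A1, the elongation factor that brings transfer RNA, was at 850.2, 516 and 537 FPKM with vehicle and 498, 516 and 516 FPKM with doxycycline, so vehicle replicate 1 alone stood high, and it was not called (chosen after its values were seen).

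Of 49 genes of ribosome biogenesis 7 fell and 2 rose, shares of 14.3% and 4.08% against 13.6% and 15.2% of all genes, with a median of -0.036. NPM1, a nucleolar chaperone, fell from 315 ± 5.27 to 268 ± 3.75 FPKM (adjusted p = 8.87e-04), and FBL, which methylates ribosomal RNA, from 66.2 ± 0.940 to 55.3 ± 2.76 FPKM (adjusted p = 0.00558). SBDS and EFL1, which together release EIF6 from the new large subunit, both rose. SBDS went from 41.5 ± 1.18 to 51.4 ± 0.547 FPKM (adjusted p = 9.45e-04) and EFL1 from 4.38 ± 0.124 to 6.35 ± 0.416 FPKM (adjusted p = 0.00219). EIF6 itself, which keeps the subunits apart, fell from 138 ± 2.49 to 121 ± 4.92 FPKM (adjusted p = 0.0103), and was chosen after its values were seen. In these 5 genes the groups did not overlap, as in 22.3% (lower) and 24.8% (higher) of all genes. Of the 49 biogenesis genes 22.4% and 14.3% had these orders.

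Of 19 genes of RNA polymerase I and its factors, which make ribosomal RNA, 4 fell and 2 rose, shares of 21.1% and 10.5% against 13.6% and 15.2% of all genes, with a median of -0.031. The subunits POLR1E (10.9 ± 0.0989 to 8.99 ± 0.176 FPKM) and ZNRD1 (5.84 ± 0.282 to 4.69 ± 0.178 FPKM) fell, as did the initiation factor gene TAF1D (15.3 ± 0.640 to 12.9 ± 0.537 FPKM) and POLR2H, a subunit that the polymerases share (11.3 ± 0.350 to 9.71 ± 0.606 FPKM). The TAF1D call was lost without vehicle replicate 2 (0.0525) and, in turn, 3 (0.0523) and without doxycycline replicate 1 (0.0503) and, in turn, 2 (0.05004), where all alternatives gave adjusted p from 0.0105 to 0.0525. The POLR2H call was lost without vehicle replicate 1 (0.0865), 2 (0.0982) and, in turn, 3 (0.0593) and without doxycycline replicate 1 (0.0716) and, in turn, 2 (0.0727), where all alternatives gave adjusted p from 0.0246 to 0.0982. POLR1A, the largest subunit, rose from 12.2 ± 0.249 to 13.9 ± 0.209 FPKM (adjusted p = 0.0114), chosen after its values were seen.

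Of 23 tested genes of the mTOR, LARP1 and MYC pathways, which set the output of ribosomal proteins, 2 fell and 2 rose, 8.70% each way against 13.6% and 15.2% of all genes, with a median of 0.050. EIF4EBP2, a repressor of translation that mTOR inactivates, fell from 30.3 ± 0.632 to 25.5 ± 1.145 FPKM (adjusted p = 0.00772). MTOR rose from 17.6 ± 0.349 to 19.6 ± 0.626 FPKM, a call lost without vehicle replicate 1 (0.0763), 2 (0.0708) and, in turn, 3 (0.0526) and without doxycycline replicate 2 (0.0718) and, in turn, 3 (0.0678), where all alternatives gave adjusted p from 0.0226 to 0.0763. MXD1 and MXI1, which compete with MYC for MAX, went opposite ways. MXD1 was at 1.83, 0.373 and 0.232 FPKM with vehicle and 3.33, 3.03 and 3.11 FPKM with doxycycline and rose, with vehicle replicate 1 above the other vehicle libraries, a call lost without vehicle replicate 2 (0.0775) and, in turn, 3 (0.0646) and without doxycycline replicate 1 (0.0729), 2 (0.0667) and, in turn, 3 (0.0687), where all alternatives gave adjusted p from 3.08e-04 to 0.0775. MXI1 was at 10.6, 11.2 and 11.4 FPKM with vehicle and 3.99, 8.07 and 3.89 FPKM with doxycycline and fell, with doxycycline replicate 2 nearest to vehicle, a call lost without vehicle replicate 1 (0.0684), 2 (0.0756) and, in turn, 3 (0.0756) and without doxycycline replicate 1 (0.0777) and, in turn, 3 (0.0750), where all alternatives gave adjusted p from 2.99e-04 to 0.0777. LARP1 had a log2 fold change of 0.050 and was not called. MYC was at 3.196, 23.4 and 36.4 FPKM with vehicle and 3.19, 2.90 and 2.99 FPKM with doxycycline, so vehicle replicate 1 lay with the doxycycline libraries, and the difference was not called (adjusted p = 0.116). LARP1 and MYC were chosen after their values were seen. Of the kinases and other entries left out by name, 10 were tested, of which 1 fell, 1 rose and 8 were not called. The shares called were 10.0% each way, against 13.6% and 15.2% of all genes. RPS6KA3, which encodes the kinase RSK2, fell by 45.1% from 61.4 ± 1.52 to 33.7 ± 0.821 FPKM (adjusted p = 2.48e-05). RPS6KA1, which encodes RSK1, rose from 20.4 ± 1.28 to 27.9 ± 1.01 FPKM (adjusted p = 0.00213).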

How the data were processed

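RNA sequencing of 6 libraries was used, 3 vehicle and 3 doxycycline. The authors deposited 1 table of FPKM per gene, with 1 column per library. The submitters' processing notes name FastQC, cutadapt, HISAT2, StringTie and GRCh37, without versions, and the annotation release is not given in the sources used here. Libraries were strand-specific per the labels' protocols.

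Of 11461 entries, 10 shared symbols, and the one with the highest mean stood for each. Genes with a mean of at least 1 FPKM were tested with limma 3.58.1 (R 4.3.3) on log2(FPKM + 1), group as the only term, with a variance trend, two-sided, Benjamini-Hochberg over 10469 genes. A fold change on this scale understates changes of low genes. Percent changes compare mean FPKM. The procedure was tested on simulated data. Figures used matplotlib 3.10.9. The members and lists were chosen with earlier results of these data known. The rule for named members was the 3 most abundant and 5 most changed called per subunit, paralog pairs, up to 2 per structural group, those nearest the limit, FAU, and up to 4 called genes of each related list. Some genes that this rule names are not reported here by name, but stay in the fits, sums and counts. Alternatives were pseudocounts of 0.1 and 0.5, other filters, scalings and limma options, a replicate block, and leaving out each library. The lists of lost and gained calls in the Results leave out the replicate block. Calls of named genes that changed under it are given in the last section.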

Additional observations from a re-analysis of the deposited data

How the results depend on the processing

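Over 17 alternatives the members called lower numbered 14 to 41, and none was called higher except 3 with quantile normalization. The main count was 28 (33.7%, against 13.6% of all genes). Of these 28, quantile normalization shared 16, and 10 members were called lower in all 18 fits, among them RPL3, RPL5, RPL13, RPL28, RPL36 and RPS26. Leaving out 1 library gave 14 to 28 members, 10 to 15 of the large subunit (main count 17) and 4 to 13 of the small subunit (main count 11). The share of all genes called lower was then 10.2% to 10.7%, also below the 13.6% with all libraries. Large subunit calls were 11 without the variance trend (13.0% of all genes were called lower) and 10 with quantile normalization (14.3%). Small subunit calls were 20 with libraries rescaled to 1 total (13.7% of all genes). With quantile normalization the large subunit median was -0.066 and the doxycycline to vehicle ratio of summed FPKM was 0.974 (0.919 as deposited). That normalization also turned the sign of RPL11 (0.18), RPL13A (0.025), RPL41 (0.14), RPS12 (0.012), RPS18 (0.0063), RPS27 (0.014) and RPS4X (0.054). The cause was not tested. The median over all genes stayed between -0.0033 and 0.0121 in all of these fits. With the replicate number as a block 27 members were called lower (10.6% of all genes) and 2343 genes either way (28 and 3012 without it). Deviations of same-numbered libraries had correlations of 0.015, -0.0321 and 0.0917, so no effect shared by number was visible over all genes. The labels do not say whether same-numbered libraries were handled together, and these correlations cannot show it. Of genes named in the text, the calls of MTOR (0.0558), POLR2H (0.0766), RPL7A (0.0810) and ZNRD1 (0.0542) were lost under that block (adjusted p in parentheses), and RPL23 (0.0360) was called lower. Depth is unknown, and shifts of this size are near the spread of several members.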
